A study of Homo sapiens with 4 samples.

Results

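BCL2 family genes control apoptosis, and 10 of them were followed here across 2 human prostate cancer cell lines: BCL2, BCL2L1, MCL1, BAX, BAK1, BBC3, PMAIP1, BCL2L11, BID and BIK. They were found as every gene probe on the array that carried one of these names, which gave 15 probes in 42 spots for the 10 genes, out of 34127 probes for 27274 gene names. The lines were LNCaP, which depends on androgen, and PC3, which does not. Each was measured once as an untreated control and once after 24 h in 10 µM atorvastatin (ATO), a statin that blocks cholesterol synthesis, so that LNCaP ATO was set against LNCaP control and PC3 ATO against PC3 control, with 1 array for each of the 4. The labels name no vehicle for the controls, and the study's methods dissolve ATO in DMSO. Both lines were grown in RPMI medium with serum. With no replicates, no difference within a line could be tested, and errors given below are technical only. Array position and group cannot be told apart, since all 4 arrays shared 1 slide and 1 scan.

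Proteins of the family meet at the outer membrane of the mitochondrion. BCL2, BCL2L1 (which encodes BCL-XL) and MCL1 hold the membrane intact, whereas the effectors BAX and BAK1 open pores in it and release cytochrome c, which starts the caspase cascade. The BH3-only proteins, among them BBC3 (PUMA), PMAIP1 (NOXA), BCL2L11 (BIM), BID and BIK, sense stress and act by binding the protectors or by switching on the effectors. Transcription of BBC3 and PMAIP1 is known to respond to the stress factors ATF4 and DDIT3 (CHOP). The comparisons asked which of these transcripts differed in level after ATO in each line, and which differed between the lines before treatment.

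The sequences that carry the results are shown first. BBC3 and PMAIP1 were the members called higher after ATO in PC3, and their promoters, the 250 bases before the RefSeq start of each gene, were read from the GRCh38.p14 assembly. The BBC3 promoter lies at chr19:47232668-47232917 on the minus strand and that of PMAIP1 at chr18:59899746-59899995 on the plus strand. Capitals mark every match, on either strand, to 5 motifs: TGACGTCA and its shorter part TGACG (the binding site of ATF and CREB factors), TGATGCAAT and its looser form TGATGNAAT (the composite site of ATF4 and CHOP with C/EBP factors), and GGGCGG (the GC box of SP1).
BBC3 promoter: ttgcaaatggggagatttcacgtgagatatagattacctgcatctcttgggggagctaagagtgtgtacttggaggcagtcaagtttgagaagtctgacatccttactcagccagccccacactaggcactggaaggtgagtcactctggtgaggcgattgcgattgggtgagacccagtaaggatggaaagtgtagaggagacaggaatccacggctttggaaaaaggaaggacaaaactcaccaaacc
PMAIP1 promoter: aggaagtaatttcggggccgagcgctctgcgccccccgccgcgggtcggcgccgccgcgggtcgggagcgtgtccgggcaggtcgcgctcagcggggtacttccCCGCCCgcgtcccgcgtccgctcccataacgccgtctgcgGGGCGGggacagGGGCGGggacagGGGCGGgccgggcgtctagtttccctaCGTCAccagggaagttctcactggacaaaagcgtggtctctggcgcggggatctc
In the BBC3 window none of the 5 motifs was found. The PMAIP1 window held TGACG on the minus strand, 55 bases before the start, and GGGCGG at 4 places, 3 of them on the plus strand and 1 on the minus strand. These motifs are common: among 34796 RefSeq promoters of the same length, 21.2% held TGACG and 42.6% held GGGCGG, whereas 1.64% held TGACGTCA, 0.218% TGATGCAAT and 0.897% TGATGNAAT. A match is a run of letters and says nothing of binding.

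Array probes are 60 bases long, and their first 30 bases are shown for genes whose reading depends on which stretch of the transcript was probed. For BBC3 and PMAIP1 a single spot carries the whole measurement. The probes of BCL2L11 differ in position and in result, and 1 of the 2 BCL2 probes is shown. Coordinates are those of the array design on the hg18 build, and exon annotation of that build was not used here. The BBC3 probe lies at chr19:52416014-52416073 and the PMAIP1 probe at chr18:55721671-55721730. BCL2 probe 2, the dimmer of the pair, lies at chr18:58941703-58941762. In order of brightness, the BCL2L11 probes lie at chr2:111642363-111642422, chr2:111598336-111598395 and chr2:111595176-111595235. Strand is minus for BBC3 and BCL2 and plus for PMAIP1 and BCL2L11, and no letters are in capitals because none is singled out.
BBC3 probe: agtctgggagtggggagggatggcccagcc
PMAIP1 probe: ggggccagtaaatcagtagactgaacattc
BCL2 probe 2: tggctgatattctgcaacactgtacacata
BCL2L11 probe 1: acttgtgttttgcactgatgaattttgaca
BCL2L11 probe 2: ctctctccctcttccttgagcattttgtca
BCL2L11 probe 3: cctttcttggcccttgttcccccaaatgtc

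Levels below are processed spot intensities in the scanner's units, and log2 ratios compare them after each array was scaled to its own 75th percentile (496.8 to 588.2 units over the 4 arrays). A spot counts as detected when the scanner software called it well above background, which held for 48.5% to 52.9% of gene spots per array, and no spot was saturated. The lowest intensity among such probes was 27.4 units in LNCaP control and 52.1 to 54.7 units on the other arrays. Between 2.80% (LNCaP control) and 20.9% (LNCaP ATO) of gene spots lay in a bright local background, meaning more than 25% above the median of their array. All 8 marker genes chosen for the lines stood on the side of the labels, each by at least 17.5-fold. KLK3, TMPRSS2 and KLK2 were among those higher in LNCaP control, and CAV1, CD44 and VIM were higher in PC3 control.

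By their brightest probe, 9 of the 10 members were detected on all 4 arrays, against 40.5% of the 27224 genes. The exception was BCL2. Of the 15 member probes, 11 were detected on every array and the 2 BCL2 probes on none.

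**Figure D1:**
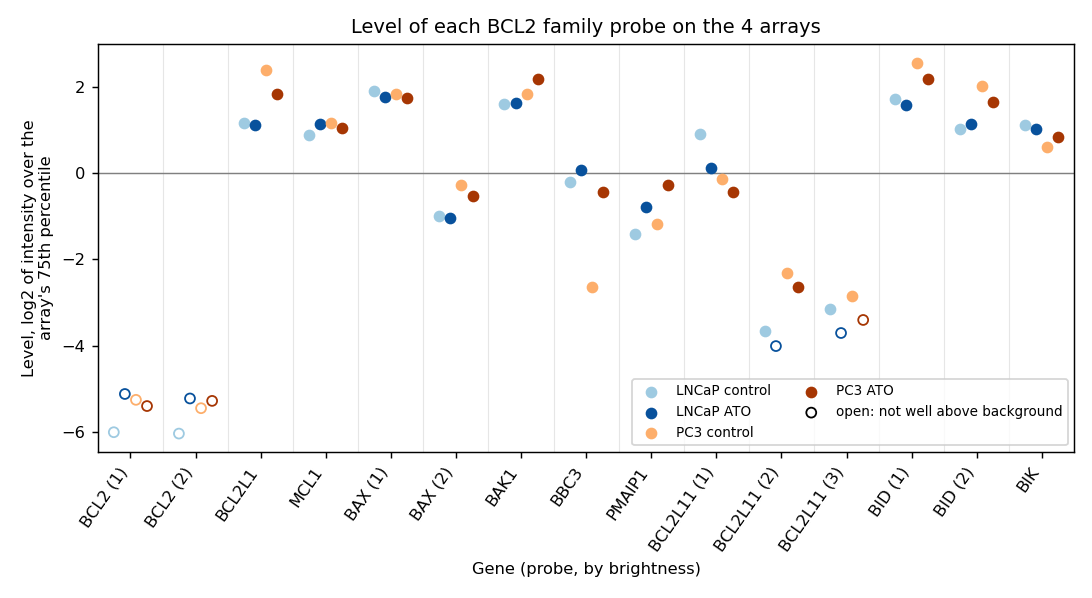
Level of each of the 15 member probes (columns, numbered by brightness where a gene has several) on the 4 arrays, as log2 of intensity over the array's 75th percentile. Filled points were well above background and open points were not. Both BCL2 probes lie below -5 on every array, and the BBC3 point of PC3 control, at -2.64, stands far below the other 3 BBC3 points.

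Among the members that protect the membrane, BCL2L1 had the lower level after ATO in PC3, MCL1 was not called in either line, and BCL2 lay at background. The 10 copies of BCL2 probe 2 gave 7.71 ± 1.71 units in LNCaP control and 15.0 ± 6.07 in LNCaP ATO (SD, n = 10 spots). In PC3 they gave 13.6 ± 1.85 units in the control (n = 9, after 1 copy of 128 units, which the software called both well above background and an outlier, was set aside) and 14.7 ± 1.11 units after ATO (n = 10). No other copy on any array was well above background, and all the means lie below the lowest detected intensity of their array. BCL2 probe 1, a single spot, read 7.7 units in LNCaP control and 15.3 after ATO, and 15.4 units in PC3 control and 13.5 after ATO, also never well above background. The deposited ratio of probe 2 is 0.22 in PC3 control and 0.03, its lowest value, on the other 3 arrays, and that of probe 1 is 0.03 on all 4. These ratios refer to the 75th percentile of the array, 588.2 units in PC3 control. Among the copies there, only the one set aside, at 128 units, comes near 0.22. With the outlier copy set aside both values of each pair are at background, so no fold of BCL2 is given in either line.

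BCL2L1 was bright on all arrays and was read from 10 copies of 1 probe. Its intensity was 1115 ± 53.7 units in LNCaP control and 1160 ± 65.5 after ATO (SD, n = 10 spots each). In PC3 it was 3105 ± 188 units in the control and 2047 ± 94.0 after ATO (SD, n = 10 spots each). The copies of PC3 control, at log2 levels of 2.22 to 2.49, and those of PC3 ATO, at 1.72 to 1.93, did not overlap, while those of the LNCaP arrays did. Copies are spots on 1 array, not replicates of a group. The median SD of repeated probes was 0.10 on PC3 control and 0.09 on PC3 ATO, and the share of such probes that separate is not given here. In PC3 the log2 ratio of ATO over control was -0.55 ± 0.11 (spread of the copies), a 1.47-fold lower level that falls just short of the 1.5-fold needed to count as called. It lay among the lowest 8.14% of genes. With spike-in scaling the value was -0.64, past that threshold, and with scaling to the 50th percentile it was -0.36. In LNCaP the ratio was -0.04 ± 0.11. MCL1, a short-lived protector, had 925.8 and 1184 units in LNCaP control and ATO (log2 ratio 0.25 ± 0.20) and 1317 and 1186 units in PC3 control and ATO (-0.10 ± 0.20). These MCL1 ratios were not called, and the sign in PC3 turned with 50th percentile scaling.

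**Figure D2:**
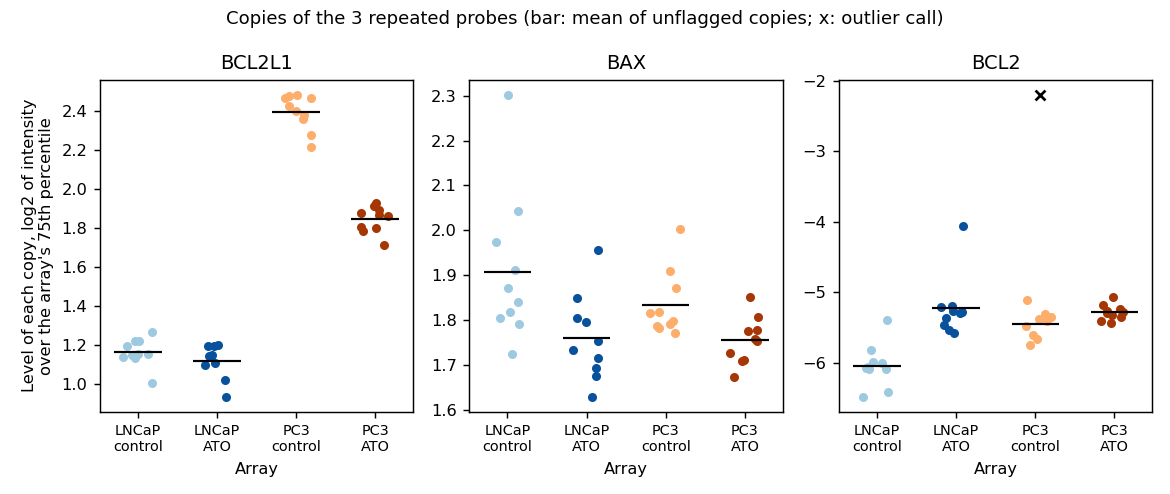
Log2 level of every copy of the 3 probes spotted 10 times (BCL2L1, BAX and BCL2, one panel each with its own vertical scale) on the 4 arrays. Bars are means of the copies used and the cross is the BCL2 copy of PC3 control set aside as an outlier. BCL2L1 copies do not overlap between PC3 control and PC3 ATO, BAX copies overlap between the arrays of a line, and BCL2 copies lie at background. How often copies of other repeated probes separate is not given here. Copies are spots on the same array, not replicates of a group.

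The effectors BAX and BAK1, which form the pores, were not called in either line. The brighter BAX probe, with 10 copies, read 1876 ± 234 units in LNCaP control and 1808 ± 121 after ATO, then 2100 ± 110 in PC3 control and 1921 ± 69.7 after ATO. The log2 ratio of the LNCaP arrays was -0.15 ± 0.19 and that of the PC3 arrays -0.08 ± 0.09, which turned to a positive value with 50th percentile scaling, and the copies overlapped in both lines. The dimmer BAX probe read 250.6 and 260.8 units in LNCaP (-0.04 ± 0.21) and 489.2 and 392.6 units in PC3 (-0.27 ± 0.21). BAK1 had 1508 units in LNCaP control and 1642 after ATO, against 2121 and 2603 units in PC3. The BAK1 ratio was 0.34 ± 0.20 in PC3 and 0.02 ± 0.20 in LNCaP. In LNCaP its sign turned with spike-in scaling and with normexp background correction followed by quantile normalization (normexp below).

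The calls after ATO lay among the BH3-only genes. BBC3, whose PUMA protein binds all the protectors, read 433.5 units in LNCaP control and 559.1 after ATO, but 94.5 units in PC3 control and 421.9 after ATO. Its level was thus low in untreated PC3 alone, and the PC3 ATO array (log2 level -0.43) came close to LNCaP control (-0.20). In PC3 the ratio was 2.21 ± 0.27 (4.62-fold, error from the scanner software), which ranked 10 from the top among 12513 genes detected on both PC3 arrays. The normexp setting, which includes quantile normalization, lowered it to 1.34, and the other settings gave 2.12 to 2.41. In LNCaP the BBC3 ratio was 0.27 ± 0.21, and the spot lay in a bright local background (1.41 times the median) on LNCaP ATO. The PC3 ratio exceeded that of LNCaP by 1.94 on the log2 scale, a difference that could not be tested.

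PMAIP1, whose NOXA protein mainly binds MCL1, was called higher in both lines. It read 185.9 and 309.8 units in LNCaP control and ATO, a log2 ratio of 0.64 ± 0.22 (1.55-fold), and 258.5 and 468.2 units in PC3 control and ATO, a ratio of 0.91 ± 0.22 (1.87-fold). These ranked 158 from the top among 12236 genes in LNCaP and 301 among 12513 in PC3. The LNCaP value sits just inside the 1.5-fold threshold, and it fell to 0.55 with spike-in scaling and to 0.53 with normexp, both outside it. In PC3 it stayed between 0.66 and 1.10. The PMAIP1 spot lay in no bright background on any array.

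BCL2L11, which encodes BIM, was the member called lower in LNCaP, and only its brightest probe was detected on both LNCaP arrays. The brightest probe read 938.2 and 580.5 units in LNCaP control and ATO (-0.79 ± 0.21, 1.73-fold lower, 56 from the bottom of 12236 genes) and 532.5 and 422.5 units in PC3 (-0.29 ± 0.22). On LNCaP ATO this spot stood in a local background 2.67 times the median of the array, and on PC3 control in one of 1.27 times. Probe 2 read 39.0 units, detected, and 33.1, not detected, in LNCaP control and ATO, which sets no lower bound above 1-fold, and read 117.9 and 90.9 units in PC3 (-0.33 ± 0.30). Probe 3 read 55.7 units in LNCaP control and 81.8 in PC3 control and was not detected after ATO in either line, at 40.8 and 53.8 units. That makes it at least 1.09-fold lower in LNCaP and at least 1.47-fold lower in PC3. With the median over the probes the LNCaP value for BCL2L11 was -0.13, and the call was lost. That median is the bound of probe 3, and probes 2 and 3 also read lower after ATO in LNCaP. The part of the bright background in the LNCaP value was not tested.

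BID, which links death receptors to mitochondria, was read by 2 probes that lie next to each other. They gave 1652 and 1019 units in LNCaP control and 1586 and 1184 after ATO. In PC3 they gave 3490 and 2382 units in the control and 2594 and 1778 after ATO. In PC3 their ratios were -0.38 ± 0.20 and -0.37 ± 0.20, whereas in LNCaP they had opposite signs, -0.16 ± 0.20 and 0.12 ± 0.21. Local background was bright for the brighter probe on PC3 ATO (1.38 times the median) and for the dimmer on LNCaP control (1.32 times). BIK, a BH3-only protein of the endoplasmic reticulum, read 1080 units in LNCaP control and 1086 after ATO, and 903.1 units in PC3 control and 1014 after ATO. Its ratios were -0.09 ± 0.20 in LNCaP and 0.22 ± 0.21 in PC3, so neither BID nor BIK was called. The BIK spot stood in a bright local background on PC3 control (1.29 times the median).

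**Figure D3:**
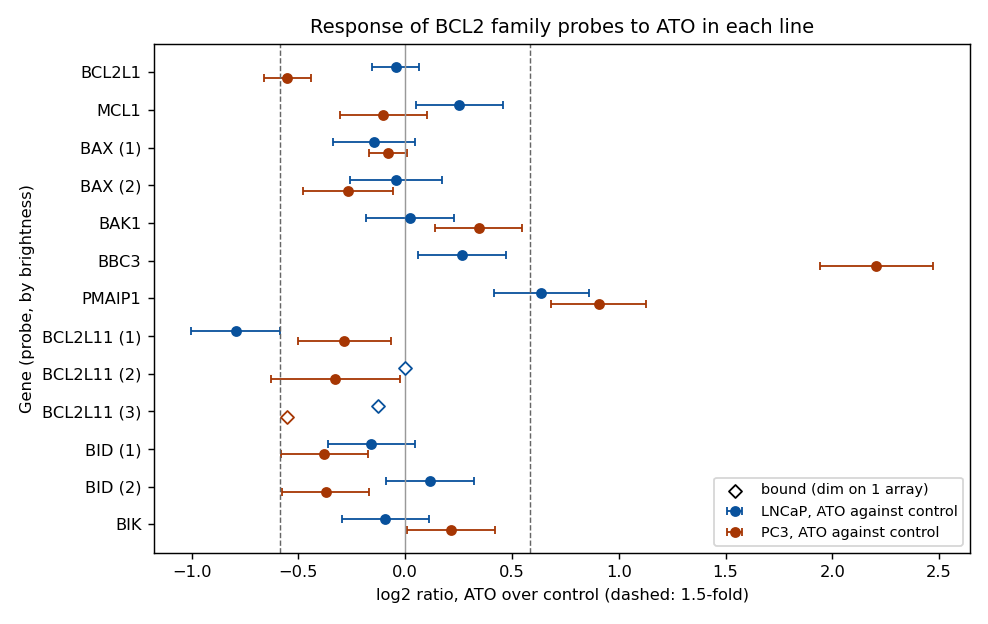
Log2 ratio of ATO over control in LNCaP (blue) and PC3 (brown) for the 13 probes of the 9 members that were detected. Bars are technical errors (SD of the copies for BCL2L1 and the first BAX probe, the scanner software's estimate for the rest), diamonds are bounds and dashed lines mark 1.5-fold. BBC3 in PC3 lies at 2.21, and PMAIP1 lies to the right of the dashed line in both lines.

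Counted over the 9 measured members, LNCaP had 1 called higher (PMAIP1) and 1 called lower (BCL2L11). Over all 13739 genes measured in LNCaP, 2.77% were called higher and 1.99% lower. In PC3, 2 members were called higher (BBC3 and PMAIP1) and 0 lower, against 8.2% higher and 10.3% lower of 13815 genes. The median member ratio was -0.04 in LNCaP and -0.08 in PC3, where the median of all genes was 0.01 in each line and the SD over genes was 0.24 and 0.44. In both lines 4 members had a positive and 5 a negative ratio. The PC3 members ranged from -0.55 to 2.21. Scaling to the 50th percentile moved the median of all PC3 genes to 0.21 and the split of PC3 calls from 1133 higher and 1419 lower to 2154 and 910, whereas spike-in scaling gave 830 and 1800, cyclic loess 1348 and 1292, and quantile normalization 1413 and 1343. Spike-in scaling turned the LNCaP split from 380 higher and 273 lower to 311 and 359, and normexp to 173 and 204. Member values in PC3 are therefore relative to the main scaling.

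The lines could be set together in 1 test, limma on all 4 arrays with cell line as a block and 1 residual degree of freedom. Over both lines, the mean log2 ratio was 0.77 for PMAIP1, which was higher in 2 of 2 lines (unadjusted p = 0.00863, adjusted p = 0.762). It was 1.24 for BBC3 and -0.54 for BCL2L11, with unadjusted p-values from limma of 0.0885 and 0.0507 and the same adjusted p. This limma fit took in 11902 genes and left 0 of them past an adjusted p of 0.05, with 532 at an unadjusted p under 0.05.

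Before treatment some of the 9 measured members were called between the lines, at rates near those of all genes. In PC3 control against LNCaP control, at 2-fold, 1 member was called higher (BCL2L1) and 2 lower (BBC3 and BCL2L11), beside 20.6% higher and 19% lower of 15237 genes. The members' median was 0.23 and that of all genes -0.12 (SD over genes 1.25). BCL2L1 was 2.35-fold higher in PC3 (1.23 ± 0.11, spread of the copies), and 0.79 with 50th percentile scaling, which ends the call. BBC3 was 5.43-fold lower in PC3 (-2.44 ± 0.26), 270 from the bottom of 11775 genes detected on both control arrays, and -1.59 with normexp, which leaves it called. The brightest BCL2L11 probe was 2.09-fold lower in PC3 (-1.06 ± 0.21), but probes 2 and 3 were higher there, with ratios of 1.35 ± 0.32 and 0.31 ± 0.35, and the median over the probes was 0.31.

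Other members were nearer to each other in the 2 controls. The BID probes gave 0.84 ± 0.20 and 0.98 ± 0.20, below 2-fold, though cyclic loess and spike-in scaling called BID higher. BIK had -0.50 ± 0.20. MCL1 (0.27 ± 0.20), BAK1 (0.25 ± 0.20) and PMAIP1 (0.23 ± 0.23) turned sign with 50th percentile scaling, and the brighter BAX probe (-0.07 ± 0.18) did so under 4 scaling or background settings. The dimmer BAX probe gave 0.72 ± 0.21. Between the control arrays the median of all genes moved from -0.12 to -0.56 with 50th percentile scaling, to 0.06 with cyclic loess and to 0.10 with spike-in scaling. The split of calls between the controls, 3139 higher and 2897 lower, became 2257 and 4737, 3595 and 2392, and 3733 and 2209 in that order. In bulk RNA such as this, fewer cells with a transcript and less transcript per cell cannot be told apart.

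Genes that act with the members were described in 5 lists: other BCL2 relatives (16 genes), the apoptosome with caspases and their inhibitors (17), the death receptor pathway (12), transcriptional regulators of the family (11), and enzymes that tag or untag MCL1 with ubiquitin (5). In LNCaP, 0 of 53 measured list genes were called higher and 1 lower, near the 2.77% and 1.99% of all genes. In PC3, 9 of 54 were called higher and 4 lower, beside 8.2% and 10.3% of all genes. The PC3 list medians were 0.17, -0.08, 0.10, 0.24 and -0.12 in the order of the lists, and those of LNCaP were 0.02, -0.02, 0.01, 0.11 and 0.02.

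Among other BCL2 relatives, BMF, a BH3-only gene, moved in opposite directions in the 2 lines, as read from the brighter of its 2 probes. Its intensity was 387 units in LNCaP control and 179 in LNCaP ATO (log2 ratio -1.21, 2.32-fold lower). In PC3 it was 41 units in the control, not well above background, and 130 units after ATO, at least 2.58-fold higher (log2 1.37, and 0.80 with normexp). Before treatment it was at least 8.79-fold lower in PC3 than in LNCaP. BCL2L10, an oocyte-rich relative, fell from 112 units to 62, which was not detected, at least 1.74-fold lower in PC3 and read in a bright background on at least 1 array. With normexp its log2 ratio was -0.27, and the call was lost. By their brightest probe, the other relatives measured in PC3, from BCL2L12 (-0.39) to BCL2L2 (0.26), were not called. BCL2A1 gave 0.19 by that probe but -0.63, past 1.5-fold, by its other probe.

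In the caspase list of PC3, 4 genes were called higher, among them CASP9 (0.79), its activating partner APAF1 (0.69) and XIAP (0.62), an inhibitor of caspases. The calls of CASP9 (0.57) and APAF1 (0.51) were lost with normexp, and that of XIAP (0.54) with spike-in scaling. The inhibitor BIRC3 was called lower (-0.87, 458 to 243 units). APAF1 was dim, with 95 units in PC3 control and 148 in PC3 ATO, and the CASP9 spot lay in a bright background on at least 1 PC3 array. None of the 16 list genes measured in LNCaP was called, and their ratios ran from -0.25 (BIRC5) to 0.17 (CASP9). In the death receptor list, TNFRSF1A was called higher in PC3 (0.78, 225 to 374 units), while FAS, at -0.58, fell just short of a call and its other measured probe gave -0.22. The LNCaP ratios of that list ran from -0.42 (TNFRSF10A) to 0.35 (CASP10).

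Among regulators of the family, the stress factors DDIT3, ATF3 and ATF4 had positive ratios by their brightest probe in both lines and were called in PC3. DDIT3, which encodes CHOP, rose from 939 units to 3383 in PC3 (1.90, 3.73-fold) and read 775 and 1210 units in LNCaP (0.54, in a bright background). ATF3 had 0.79 in PC3 and 0.49 in LNCaP, with its other probes at 1.48, 0.22 and 0.65 in PC3 and at 0.29, -0.34 and 0.41 in LNCaP. ATF4 was at the threshold in PC3 (0.58), and its call was lost with quantile normalization (0.55), cyclic loess (0.58) and spike-in scaling (0.50). In LNCaP it had 0.41. MYC (-0.93, 5057 to 2569 units) and E2F1 (-0.86, 1222 to 650 units), both drivers of proliferation, were called lower in PC3. None of the 5 MCL1 enzymes was called after ATO in either line, with ratios from -0.17 (MARCHF5) to 0.16 (USP9X) in PC3.

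**Figure D4:**
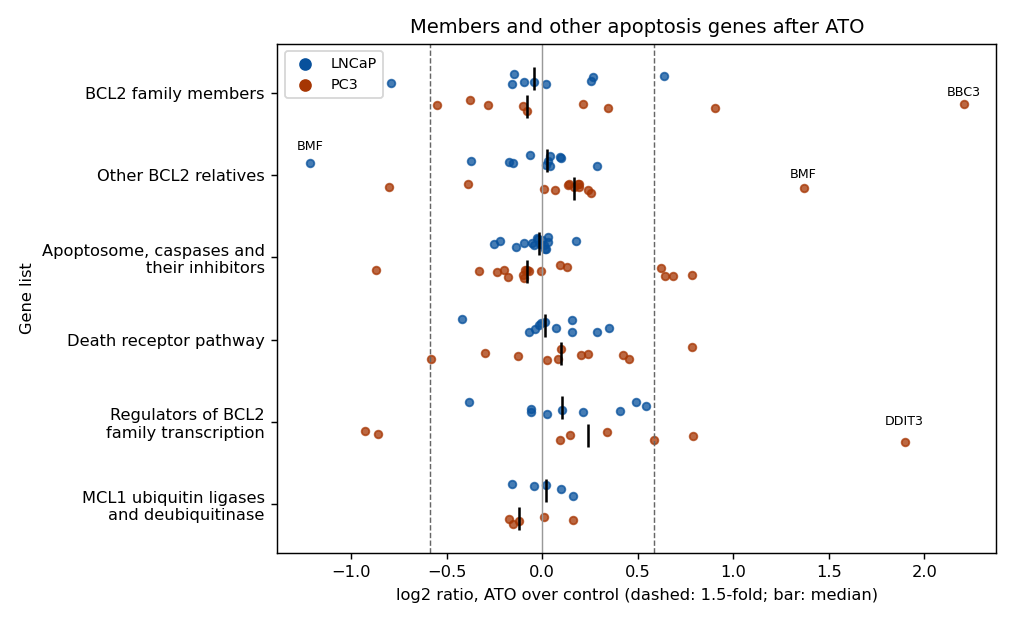
Log2 ratio of ATO over control for the measured members and for each of the 5 lists (rows), in LNCaP (blue, upper) and PC3 (brown, lower). Each point is a gene, black bars are medians, dashed lines mark 1.5-fold, and genes beyond 2-fold are named. BMF lies at -1.21 in LNCaP and at its bound of 1.37 in PC3, with BBC3 at 2.21 and DDIT3 at 1.90 in PC3.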

How the data were processed

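Transcript levels in LNCaP and PC3 came from Agilent arrays of 1 colour, with 1 array per group, and groups were taken from the labels. The deposited scanner files give spot intensity as the authors obtained it with Agilent Feature Extraction 9.5.3.1: per the file headers, a spatially fitted background was subtracted, a multiplicative trend was corrected, and spots not above background received a surrogate value. The deposited value table holds a ratio of each probe to the 75th percentile of its array, with a lowest value of 0.03, and served as an alternative. The settings of the authors' software for that table are not given in the sources used here.

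Members and lists were chosen with earlier results of these data known. Spots with an outlier call were left out, the copies of each probe were averaged as log2 intensities, and every array was centred on its 75th percentile. A probe was well above background where over 50% of its used spots were, and the brightest probe stood for its gene. Genes well above background on at least 1 of 2 arrays were called at 1.5-fold (ATO) or 2-fold (between controls). Where only 1 array detected a probe, it was compared with the dim array, using there the probe's own value or the lowest detected intensity, whichever was higher, and the result is given as "at least". A bound under 1-fold was entered as 0. The error of a ratio combines the SD of the copies or, for single spots, the error estimate of the scanner software. Treatment over both lines was fitted with limma 3.58.1 in R 4.3.3 (lmFit and eBayes, two-sided, Benjamini-Hochberg over all genes, cell line as a block), and the scripts were tested on simulated data. Other steps used Python 3.11.15, pandas 2.3.3 and numpy 2.4.6. Named genes were all members and, in each list, those called or with the highest and lowest ratios, though some genes and 1 probe sequence are not reported here. Alternatives were 50th percentile, quantile, cyclic loess and spike-in scaling, and normexp background correction (offset 50) followed by quantile normalization. Further alternatives were outlier spots kept, the median over probes, other filters on dim probes and local background, stricter folds and the deposited ratios. Protein sequences were planned and are not analysed here. Promoters of 8 of the 10 members were matched in RefSeq by symbol.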

Additional observations from a re-analysis of the deposited data

Results flagged for a closer look

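BMF, a BH3-only relative of the members, was the only gene of the 60 members and list genes measured in both lines to pass 1.5-fold in opposite directions. Its log2 ratio of ATO over control was -1.21 in LNCaP and at least 1.37 in PC3, so that the PC3 response exceeded the LNCaP response by at least 2.58 on the log2 scale. With normexp background correction followed by quantile normalization the PC3 ratio was 0.80 and the difference 1.81. The difference was not tested, since there was 1 array per group. BMF had 2 probes, and only the brighter gave a ratio in either line. No technical error is given for the BMF values. The share of all genes passing 1.5-fold in opposite directions is not given here, so 1 of 60 has no background beside it.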

How the results depend on the processing

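The labels carry no replicate numbers, so the only pairing was by cell line, the block of the limma fit. Leaving out an array would remove a whole group, and the number of arrays limits every value. Technical errors cover spots, not cultures. Counts below under an alternative setting have no share over all genes at that setting beside them, and only describe the calls. For some settings between the controls, counts over all genes are given.

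In LNCaP, the 1 member called higher became 0 with spike-in scaling, with normexp and at 2-fold, and 2 with no filter on dim probes, where BCL2 at background was counted. The 1 called lower became 0 with the median over probes and at 2-fold. The count was also 0 with bright local backgrounds left out, because BCL2L11 itself was then left out. List genes called lower went from 1 to 3 with outlier spots kept (BIRC5 and E2F1 joining BMF), and those called higher from 0 to 3 with no filter.

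In PC3, members called lower went from 0 to 1 with spike-in scaling (BCL2L1) and with normexp (BCL2L11). At 2-fold, 1 member (BBC3) and 2 list genes (BMF and DDIT3) were called higher and 0 list genes lower. BBC3 and PMAIP1 were called higher in PC3 under every other setting.

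Between the controls, members called higher became 0 with the 50th percentile and at 4-fold, and 2 (BCL2L1 and BID) with cyclic loess and spike-in scaling. Members called lower became 1 (BBC3) with cyclic loess, spike-in scaling, normexp, the median over probes and at 4-fold. The count was also 1 with bright backgrounds left out, because BCL2L11 itself was then left out. BCL2L11 turned to 0.31 and BCL2A1 to 1.04 with the median over probes. Of 56 list genes measured, 7 were higher and 11 lower, beside 20.6% and 19% of all genes. These became 4 and 19 with the 50th percentile and 11 and 7 with cyclic loess. They became 12 and 7 with spike-in scaling and 4 and 7 with normexp. Over all genes, 3139 higher and 2897 lower became 2257 and 4737, 3595 and 2392, 3733 and 2209, and 2199 and 2285 in that order. At 4-fold the list counts were 2 and 3, and 4 list genes were higher where detection on both arrays was required.

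With the 50th percentile, limma passed 5 genes, none of them a member, against 0 otherwise. Of single-gene values, 16 of 668 were counted as moved from the main setting in LNCaP and 95 of 679 in PC3. Between the controls 265 of 701 were, and 2 in all reversed. Some of these moves lay inside the errors given above. With 50th percentile scaling MCL1 in PC3 went from -0.10 to 0.09, at an error of 0.20. The cause of these shifts was not tested.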
